A study of Mus musculus with 6 samples.

Results

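Transcripts of 3 chromatin regulators, Dnmt1, Ehmt1 and Smarca5, were followed in parthenogenetic mouse embryos. The probes taken were those for which the platform annotation gives exactly 1 gene symbol, and that symbol is one of the 3. This left 7 of the 22132 probes of the table, for 3 of the 4797 genes that have such a probe: 1 for Dnmt1, 1 for Ehmt1 and 5 for Smarca5, each described separately. A further 6 probes list a member together with other genes and were not used. All 7 probes were measured on every array, with 0 values at exactly 0 or at the limit of the ratio, and all 7 were tested.

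Mouse eggs at metaphase 2 were activated without sperm and the embryos were kept in KSOM medium for 60 h. One group of 3 arrays came from eggs activated with cycloheximide, which inhibits protein synthesis and activates eggs without a calcium rise, and the other group of 3 arrays from eggs activated with strontium chloride, which evokes repeated calcium release. Cytochalasin D, which blocks extrusion of the polar body, was given in both groups. As no sperm took part, all embryos are parthenogenetic and none tests fertilisation. Each array compared mRNA equivalent to 25 embryos, amplified in 2 rounds and labelled with Cy3, with universal mouse reference RNA that carried Cy5 and had gone through 1 round of amplification. The title of the series asks whether the absence of a calcium signal at activation affects later gene expression. Whether the 3 arrays of a group hold separate collections of embryos is not stated in the labels, so p-values measure no more than how much these samples vary, and that variation may be technical.

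DNMT1 is the methyltransferase that copies CpG methylation to the new DNA strand after replication, and mouse oocytes store an oocyte form of the protein that serves the early embryo. EHMT1, also called GLP, acts with its paralog EHMT2 (G9a) to place mono- and dimethylation on lysine 9 of histone H3, a mark of silent euchromatin. SMARCA5, also called SNF2H, is the ATPase of ISWI complexes, which space nucleosomes, and mouse embryos that lack it die around implantation.

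The Dnmt1 probe stands for all transcripts it can bind, and the annotation lists 10 accessions for it. RefSeq places 3 transcript starts of Dnmt1 on the minus strand of chromosome 9. The single probe cannot be assigned to any of the 3 starts. The 250 bases before the 2 upstream starts are shown, and the windows differ in their content of CpG, the substrate of the enzyme itself. Capitals mark each CG, a motif that reads the same on both strands.
Dnmt1 farthest upstream start, chr9:20959889-20960138 (GRCm38.p6, minus strand): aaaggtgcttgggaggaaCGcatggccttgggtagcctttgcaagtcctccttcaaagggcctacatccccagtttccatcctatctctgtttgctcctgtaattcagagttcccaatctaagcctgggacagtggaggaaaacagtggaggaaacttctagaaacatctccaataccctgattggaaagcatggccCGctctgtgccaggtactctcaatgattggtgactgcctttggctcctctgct
Dnmt1 middle start, chr9:20952980-20953229 (GRCm38.p6, minus strand): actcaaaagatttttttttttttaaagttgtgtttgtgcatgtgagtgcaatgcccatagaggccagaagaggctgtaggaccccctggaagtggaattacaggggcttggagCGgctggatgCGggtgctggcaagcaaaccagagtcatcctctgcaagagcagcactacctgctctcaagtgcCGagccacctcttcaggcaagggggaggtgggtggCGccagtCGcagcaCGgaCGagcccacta
The farthest upstream window held 2 CpG, the middle window 7 and the window of the third start 26. The windows of the same length before the starts of Ehmt1 on chromosome 2 and of Smarca5 on chromosome 8 held 26 and 29. At least 1 CpG occurred in 92.1% of the 32851 RefSeq windows, with a median of 6. These counts describe the sequence alone, since methylation was not measured here.

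Levels are given as the log2 of embryo over reference signal, with mean ± SD over 3 arrays, and differences are cycloheximide minus strontium on the same log2 scale. The table states no direction for its ratios: embryo over reference is likely from the dyes, and if it were the opposite every sign would turn. In that direction the median ratio of 10 probes of oocyte and early embryo genes lay between 1.32 and 2.19 on the 6 arrays, and that of 6 fibroblast and stroma probes between -5.53 and -4.48. Of these oocyte genes 7 of 15 were measured. For Tdgf1, which encodes a Nodal co-receptor, all 6 arrays held the largest ratio the table allows. Within the same list, Tcl1 probe 7040 fell to -3.27 on cycloheximide array 3 and was at -0.93, -0.24 and -3.65 on the 3 strontium arrays. Bmp15 probe 1182 was at -0.28 on cycloheximide array 3 and -1.03 on strontium array 3. The remaining probes of the list lay above 0 on every array. The stroma genes, of which 5 of 10 were measured, had summed ratios of -25.88 to -24.52 after cycloheximide and -25.53 to -23.73 after strontium. S100a6 was at the limit of -6.64 on all 6 arrays and Col1a1 on 1, so these sums are cut off. The probes of Fn1 disagreed: probe 9653 averaged -5.22 after cycloheximide and -5.28 after strontium, and probe 17615 averaged 0.26 and 0.35. Only 2 of 10 cumulus and granulosa genes were measured, with summed ratios of -1.78 to -0.41 and -2.91 to -0.15, and 1 of their 3 probes, for Cyp11a1, was listed at exactly 0 on 4 arrays. For blood it was 3 of 6 genes, with -2.79 to -0.16 and -2.10 to -1.46. The part of other cells in the results was not tested. The third cycloheximide array resembled strontium array 3 (r = 0.909 over all tested probes) more than the other cycloheximide arrays (r = 0.762 and 0.810).

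Between the groups, with no scaling between arrays and in the direction of embryo over reference, the Dnmt1 and Ehmt1 probes had higher ratios on every cycloheximide array than on any strontium array, and 1 Smarca5 probe had lower ones, but 0 of the 7 probes passed the test. By limma with Benjamini-Hochberg adjustment over 21921 probes, the share past an adjusted p of 0.05 was 0% of all probes tested. At an unadjusted p under 0.05 it was 1 of the 7 members, a Smarca5 probe, against 6.02% of all probes. The groups did not overlap for 3 of the 7 members, against 11.8% of all probes (5.72% with cycloheximide higher and 6.04% with cycloheximide lower). The exact two-sided permutation test of 3 against 3 arrays gave its smallest possible p of 0.1 for each of those 3 probes.

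**Figure D1:**
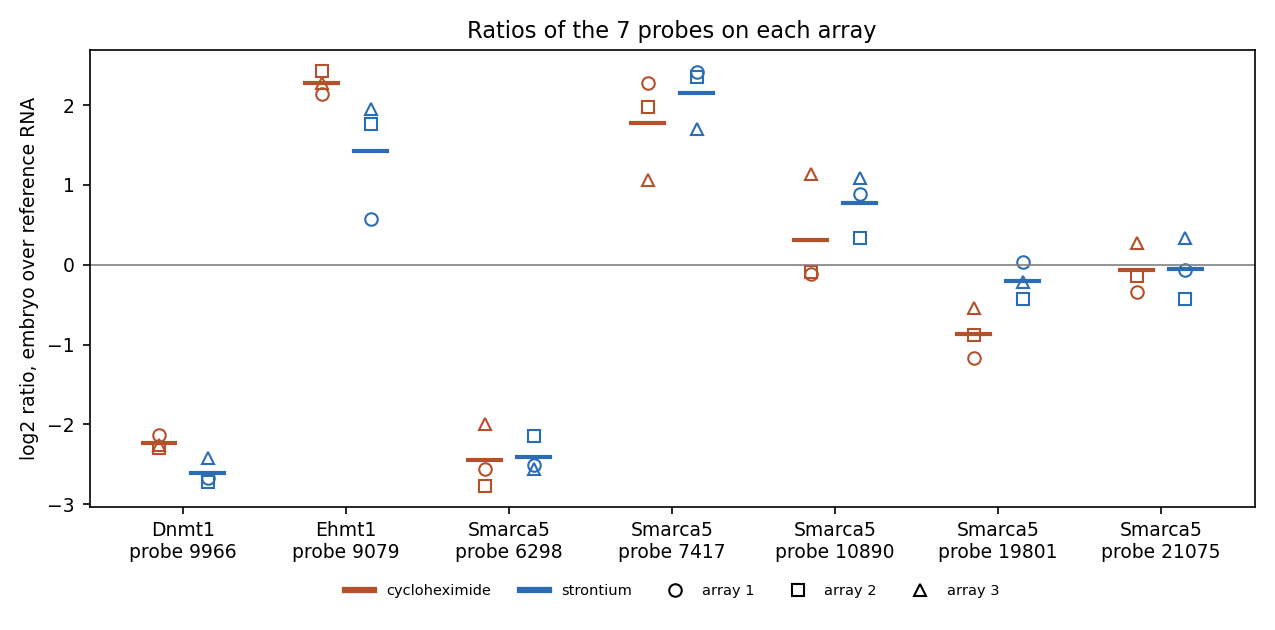
Log2 ratio of embryo over reference RNA (vertical axis) for each of the 7 probes (horizontal axis), with 1 point per array and a bar at the mean of each group of 3. The groups are apart for Dnmt1, Ehmt1 and Smarca5 probe 19801 and overlap for the other 4 probes.

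Dnmt1 lay well below the reference RNA in both groups. Its log2 ratio was -2.13, -2.30 and -2.25 on the cycloheximide arrays and -2.68, -2.72 and -2.42 on the strontium arrays. All 3 strontium arrays lay lower, by a gap of 0.12 between the nearest arrays of the groups. The group levels were -2.23 ± 0.09 and -2.61 ± 0.16 (SD, n = 3), so the reference signal was 4.68-fold and 6.09-fold that of the embryos. Between 5.54% and 8.21% of all tested probes had a lower ratio on the same array, and 91.8% to 94.5% would if the direction of the ratio were the opposite. Dyes were not exchanged and the rounds of amplification differed, so these effects cannot be told apart from a level against the reference. Both are shared by the groups.

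The Dnmt1 difference between groups was 0.38 (SE 0.17; 95% interval -0.04 to 0.80), or 1.30-fold, with an unadjusted p of 0.0694 and a limma adjusted p of 0.842. It was larger than the spread of either group but not larger than the test required, and 32.9% of all probes had a difference of greater size. Leaving out any 1 array kept the difference between 0.32 and 0.47. Scaling the arrays to the same spread took it to -0.016, so its sign turned under that scaling. The spread of all ratios differed between arrays, with an interquartile range of 1.09 to 1.58 on the log2 scale.

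Ehmt1 lay above the reference in both groups. Its log2 ratio was 2.14, 2.43 and 2.28 after cycloheximide and 0.57, 1.76 and 1.95 after strontium. The cycloheximide arrays lay close together and above all strontium arrays, by a gap of 0.19, and array 1 of strontium stood far below the other two. The levels were 2.28 ± 0.14 and 1.43 ± 0.75, or 4.86-fold and 2.69-fold the reference. On its array, the Ehmt1 ratio exceeded those of 67.3% to 96.3% of the probes, or of 3.75% to 32.6% if the direction were the opposite.

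For Ehmt1 the difference was 0.85 (SE 0.39; 95% interval -0.09 to 1.79), or 1.81-fold, with an unadjusted p of 0.0681 and a limma adjusted p of 0.838. Of all probes, 8.07% had a difference of greater size. The size rested in part on a single library: without array 1 of strontium it was 0.43 (SE 0.20, adjusted p = 0.993). It stayed above 0 with every array left out in turn and under every other setting tried, up to 1.15 with array weights. That last fit rested mostly on cycloheximide array 2, with a weight of 22.6 against 0.156 to 1.03 for the other arrays, and its weights had not converged.

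**Figure D2:**
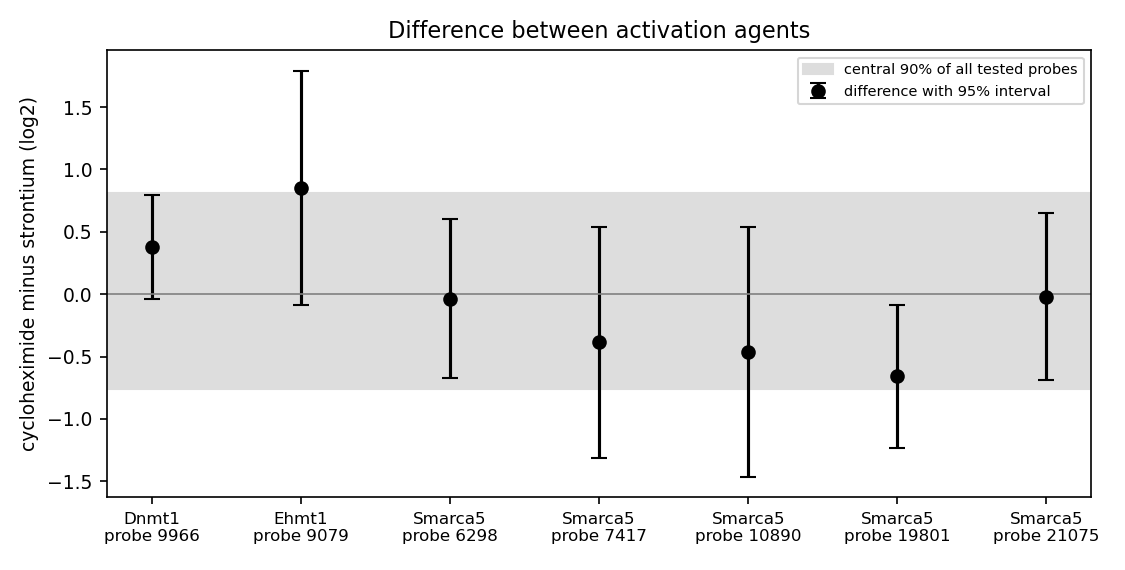
Difference between groups (cycloheximide minus strontium, log2, vertical axis) of each probe (horizontal axis) with its 95% interval from limma. The grey band spans -0.76 to 0.81, the central part of the differences of all tested probes, and the interval of Smarca5 probe 19801 is the only one of the 7 that leaves out 0.

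The 5 Smarca5 probes gave ratios to the reference that did not match each other. Their means over the 6 arrays were -2.42 for probe 6298, -0.53 for probe 19801, -0.06 for probe 21075, 0.54 for probe 10890 and 1.96 for probe 7417. The outermost means lay 4.39 apart on the log2 scale, which is 20.9-fold, and on each of the 6 arrays probe 7417 exceeded probe 6298 by 3.05 to 4.93. Both of these, with probes 10890 and 21075, are annotated through the same single accession. Probe 19801 lists that accession among 8. Of the 18 genes with exactly 5 probes of 1 symbol, 3, with Smarca5 among them, had a range of probe means this wide, and the median range was 1.71. No level of the Smarca5 transcript against the reference can therefore be given from these probes together.

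Probe 19801, whose annotation rests on the most accessions, was the Smarca5 probe that differed most between groups. Its log2 ratio was -1.16, -0.88 and -0.54 after cycloheximide and 0.03, -0.43 and -0.22 after strontium. Every strontium array lay higher, by a gap of 0.11. The levels were -0.86 ± 0.31 and -0.21 ± 0.23, a difference of -0.66 (SE 0.24; 95% interval -1.23 to -0.08), with strontium 1.58-fold higher. The unadjusted p was 0.0311 and the limma adjusted p 0.815, and 3.81% of all probes had a smaller p. The difference ran from -0.82 to -0.51 with each array left out in turn.

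Probe 10890 had ratios of -0.12, -0.09 and 1.14 after cycloheximide and 0.89, 0.34 and 1.09 after strontium. Arrays 1 and 2 of cycloheximide lay below all strontium arrays, and array 3 lay above them all. The levels were 0.31 ± 0.72 and 0.77 ± 0.39 and the difference was -0.47 (SE 0.41, unadjusted p = 0.300, limma adjusted p = 0.866). Without array 3 of cycloheximide it was -0.88 (SE 0.27, limma adjusted p = 0.213).

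Probe 7417, the Smarca5 probe with the highest mean ratio in this direction, had ratios of 2.27, 1.98 and 1.06 after cycloheximide and 2.42, 2.35 and 1.70 after strontium. Array 3 was the lowest of its group in both, and the groups overlapped. The levels were 1.77 ± 0.63 and 2.16 ± 0.40, a difference of -0.39 (SE 0.38, limma adjusted p = 0.866), which was -0.03 without array 3 of cycloheximide.

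The remaining 2 probes differed little between the groups, and their intervals are too wide to show that the groups were alike. Probe 6298 had ratios of -2.56, -2.77 and -1.99 after cycloheximide and -2.51, -2.14 and -2.56 after strontium, with a difference of -0.03 (95% interval -0.67 to 0.61). Probe 21075 had ratios of -0.35, -0.14 and 0.28 after cycloheximide and -0.06, -0.43 and 0.33 after strontium, with a difference of -0.02 (95% interval -0.69 to 0.65). The signs of both turned when single arrays were left out.

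Array 3 of cycloheximide lay outside the range of arrays 1 and 2 for all 5 Smarca5 probes, by 0.48 to 1.25 from their mean, and within that range for Dnmt1 and Ehmt1. For all probes the share outside was 87.6%, with a median distance of 0.53, so most probes of the table behaved as the Smarca5 probes did. Over the 6 arrays the Smarca5 probes varied together in part. Pearson's r was 0.81 between probes 10890 and 21075 and 0.78 between probes 10890 and 19801, and -0.79 between probes 7417 and 21075, with Spearman's rho of 0.77, 0.60 and -0.60. These are descriptions over arrays that share the reference, and array 3 of cycloheximide is extreme in several. Averaging the 5 probes gave a Smarca5 difference of -0.31 (limma adjusted p = 0.833 over 4742 genes).

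Other genes of the same processes were counted by list: 85 genes in 4 lists, of which 31 had probes with 1 symbol, 38 in all. Of these 38 probes, 28 had a higher mean ratio after cycloheximide and 10 a lower one, with a median difference of 0.20 against -0.05 over all probes, of which 56.7% lay below 0. None passed the limma adjusted test (0% of all probes), and 3 were higher and 0 lower at an unadjusted p under 0.05, against 3.7% and 2.32% of all probes. The groups did not overlap for 5 probes, all higher after cycloheximide. These were 13.2% of the 38 probes, near the 11.8% of all probes whose groups did not overlap in either direction (5.72% of all higher, 6.04% lower).

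Among DNA methylation genes, 5 of 19 were measured by 6 probes, 5 above 0 and 1 below, with a median difference of 0.29. Dnmt3b, a de novo methyltransferase, was at 1.96 ± 0.59 after cycloheximide and 1.66 ± 0.07 after strontium, with a difference of 0.30 (SE 0.31) that was 0.021 without cycloheximide array 1 and 0.60 without cycloheximide array 2. Dnmt3a, the other de novo enzyme, was at -0.63 ± 1.07 and -0.92 ± 1.38, with a difference of 0.29 (SE 0.83) that ran from -0.38 without strontium array 1 to 1.00 without strontium array 3. The smallest p of the list belonged to a probe of Hells, a remodelling ATPase that aids DNA methylation, with a difference of 0.78 (SE 0.67) that was 0.28 without strontium array 1 and 1.49 without strontium array 3. For each of these probes the SD of at least 1 group exceeded the difference.

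Genes that write, read or remove histone H3 lysine 9 methylation comprised 9 of 20 measured by 12 probes, 9 above 0 and 3 below, with a median of 0.22. Cbx1, which encodes an HP1 protein that binds the methylated lysine, had ratios of -0.38, -1.13 and -1.50 after cycloheximide and -4.00, -3.30 and -1.62 after strontium. Its groups lay apart, with array 3 of both close to each other, and the difference was 1.97 (SE 0.65, unadjusted p = 0.0224). Setdb1, another methyltransferase of this lysine, was at 0.10 ± 0.37 and 0.03 ± 0.26.

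In the list of ISWI complexes, which also holds the SMARCA5 paralog Smarca1 (not measured), 4 of 12 genes were measured by 6 probes. Of these probes 5 lay above 0 and 1 below, with a median of 0.12. Bptf, the large subunit of the NURF complex, had ratios of 0.22, 0.32 and 0.59 after cycloheximide and -0.92, -0.73 and -0.01 after strontium, a difference of 0.93 (SE 0.28, unadjusted p = 0.0167) in which every cycloheximide array was higher. Of Baz2a, the partner of SMARCA5 in the NoRC complex, probe 17287 differed by 1.11 (SE 0.34, unadjusted p = 0.0166) and probe 12231 by 0.13. Baz1a, of the ACF complex, differed by 0.04 (SE 0.65), and the probes of Baz1b, of the WICH complex, by 0.11 and -0.54. With each array left out in turn, Bptf ran from 0.75 to 1.20 and Baz2a probe 17287 from 0.79 to 1.35. Single arrays set the sizes of Baz1a and Baz1b. Baz1a ran from -0.49 without strontium array 2 to 0.73 without strontium array 3. Baz1b probe 6909 ran from 0.027 without strontium array 1 to 0.21 without strontium array 2. For Baz1b probe 12210 it was -0.97 without strontium array 3 to -0.034 without strontium array 1. In the list of other remodelling complexes, 13 of 34 genes were measured by 14 probes, 9 above 0 and 5 below, with a median of 0.14. Its smallest p was that of Ino80, an ATPase, with a difference of 0.83 (SE 0.35, unadjusted p = 0.0556).

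**Figure D3:**
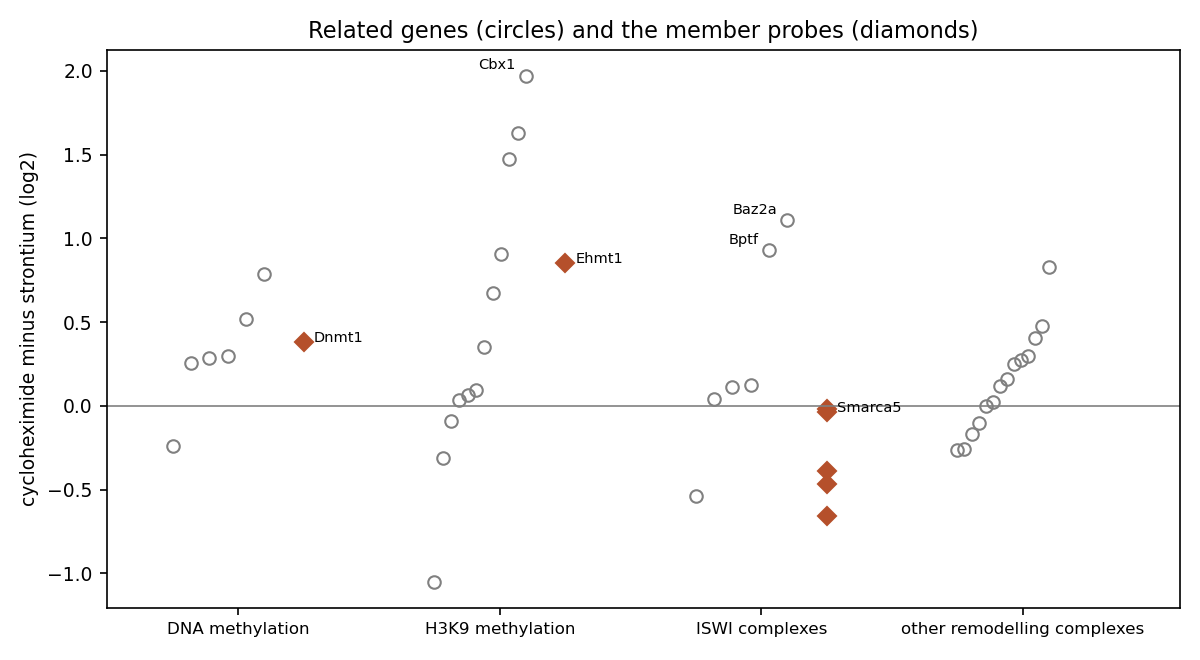
Difference between groups (cycloheximide minus strontium, log2, vertical axis) for each probe of the 4 lists (grey circles, in order of size) and for the probes of Dnmt1, Ehmt1 and Smarca5 (diamonds) beside their list. Named circles, those of Cbx1, Baz2a and Bptf, had an unadjusted p under 0.05, and the 5 Smarca5 diamonds lie below 0, 2 of them so near to it that their sign turned when single arrays were left out.

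The probes whose pattern over the 6 arrays was most like that of Dnmt1, by Pearson's r among 5882 probes with 1 symbol and no value at 0 or at a limit, were those of Luc7l (0.98), Ier2 (0.98) and Slc25a3 (0.98). Ier2, an immediate early gene, had ratios of 1.65, 0.87 and 1.45 after cycloheximide and -1.08, -1.08 and -0.15 after strontium. For Ehmt1 they were Atp11b (0.98), Atf7ip (0.98), which is also in the list of lysine 9 methylation and encodes a partner of SETDB1, and Abl1 (0.98). The Atf7ip probe 11179 had ratios of 0.70, 0.80 and 1.04 after cycloheximide and -0.59, 0.49 and 0.61 after strontium, so that array 1 of strontium stood low as it did for Ehmt1. Atf7ip probe 6174 was lowest on strontium array 3 instead, with 1.34, 1.37 and -1.03 after cycloheximide and -1.40, 0.37 and -2.18 after strontium. Atf7ip probe 10127 was at the limit of -6.64 on strontium array 1 and so was left out of the ranking. The match to Ehmt1 is therefore that of a single Atf7ip probe. Among Smarca5 probes the rule took 7417, the one with the widest range, and the most similar were Stap1 (0.996), Prr36 (0.996) and Tifa (0.993). For Dnmt1, Ehmt1 and Smarca5 probe 7417, 20, 26 and 80 genes, each counted once by its most similar probe, exceeded an r of 0.95. Probe 7417 itself had an r of -0.44 with probe 6298, -0.55 with 10890, 0.016 with 19801 and -0.79 with 21075. Its matches are therefore those of a single Smarca5 probe.

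**Figure D4:**
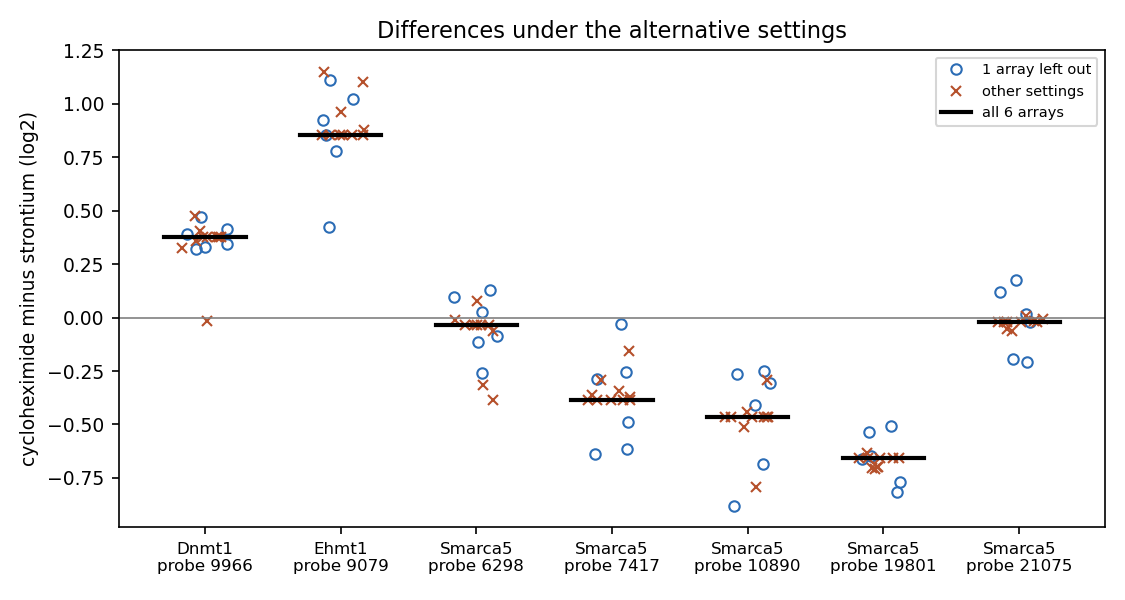
Difference between groups (cycloheximide minus strontium, log2, vertical axis) of each probe under 16 alternative settings: circles leave out 1 array, crosses change another setting and the black line uses all 6 arrays. Ehmt1 stays above 0 and Smarca5 probes 7417, 10890 and 19801 stay below 0 under all 16, while Dnmt1 reaches -0.016 under 1 setting.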

How the data were processed

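The series compared 6 Agilent arrays with 2 colours, 3 per activation agent. The deposited table has a column of log10 channel ratios for each array, limited to -2 and 2. Per the submitters' processing notes the software was Agilent Feature Extraction; its version, background setting and dye handling are not given here. Values of exactly 0 are read as ratios that were not set. The main fit, however, left out only probes at 0 on all arrays. Other zeros entered it, the shares of all probes and the sums as ratios of 0, and were treated as missing only in an alternative setting. Spot intensities were not analysed here, so how far a spot stood above background is not known. Precision is limited by the number of arrays. To obtain log2 of embryo over reference, each value was multiplied by 3.32 after its sign was turned.

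Of the 22132 probes, 6249 list 1 gene, 9389 several and 6494 none. Gene IDs of 6179 of the first matched the RefSeq table (GRCm38.p6), and 0 symbols differed. After 211 probes at 0 on all arrays were left out, 21921 were fitted with limma 3.58.1 (lmFit, eBayes) in R 4.3.3, with a threshold of 0.05. The fit was tested on simulated data. Alternatives were the replicate block, leaving out each array, 3 normalizations, array weights, the handling of zeros, moderation, neighbouring probe numbers and the probe set. Named were all member probes, fixed partners and paralogs, and the smallest p of each list. Also named were the 3 genes most correlated with each member's probe of widest range. Members and lists were chosen with earlier results of these data known. Python 3.11.15, pandas 2.3.3, NumPy 2.4.6 and matplotlib 3.10.9 were also used.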

Additional observations from a re-analysis of the deposited data

How the results depend on the processing

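Each member difference was recomputed under 16 alternatives, giving 112 values, of which 9 changed sign and 0 passed the adjusted threshold. With each array left out in turn, the differences ran from 0.32 to 0.47 for Dnmt1, 0.43 to 1.11 for Ehmt1, and for Smarca5 from -0.26 to 0.13 (probe 6298), -0.64 to -0.03 (7417), -0.88 to -0.25 (10890), -0.82 to -0.51 (19801) and -0.21 to 0.17 (21075). Other changes of sign were Dnmt1 at -0.016 with arrays scaled to the same spread, probe 21075 at 0.0052 with median centring and probe 6298 at 0.076 with neighbouring probe numbers subtracted. The cause was not tested. Among related genes, leaving out 1 array gave -0.38 to 1.00 for Dnmt3a, -0.11 to 0.26 for Setdb1 and -0.49 to 0.73 for Baz1a. Baz1a was at -0.26, -0.036 and -0.071 with scaling, quantile normalization and array weights. With array weights Dnmt3b was at -0.26. With median centring the levels of Dnmt1 were -2.39 and -2.79 and that of Ehmt1 after cycloheximide 2.12. Of the 9 genes most like a member, 6 stayed among the first 3. Those that left were Ier2, Atf7ip and Tifa, at ranks 6, 4 and 9.

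Over all probes 0 were higher and 0 lower at the adjusted threshold except with array weights (224 and 135, Bptf among them with a limma adjusted p of 0.0494), where 2864 and 4368 had an unadjusted p under 0.05, against 811 and 508. The estimate of these weights stopped before it converged, and it gave cycloheximide array 2 a weight of 22.6 against 0.156 to 1.03 for the other arrays. Leaving out 1 array gave 449 to 1421 higher and 299 to 2821 lower probes unadjusted, the highest of both without array 3 of cycloheximide. Fitting only probes with 1 gene gave 232 and 154, but out of at most 6249 probes, against 21921 in the main fit. With the replicate block, 1222 and 864 were unadjusted and the limma adjusted p was 0.530 for Dnmt1 and 0.519 for Ehmt1, with 0 calls changed at the adjusted threshold. The unadjusted limma p rose to 0.0511 for Smarca5 probe 19801 and fell to 0.0444 for Ehmt1, so the member under 0.05 was another one. Other settings also moved members across this unadjusted threshold, in both directions. Arrays sharing a number had deviations from their group means that correlated at 0.056, 0.379 and 0.501. Cycloheximide arrays 2 and 3 matched the strontium array of their own number best, but for cycloheximide array 1 the best match was strontium array 2 (0.457). The numbers were therefore not taken as pairs. These correlations cannot exclude pairing, since deviations from a mean of 3 arrays are not independent.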
